A study of Mus musculus with 8 samples.

Results

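The polypyrimidine tract binding proteins are encoded by the paralogous genes Ptbp1, Ptbp2 and Ptbp3, and the tags that Ptbp2 left on the transcripts of all 3 were examined in embryonic mouse cortex. Members were the tags whose midpoint lay on the gene strand within a fixed span of the mm9 assembly. The spans were 79317000 to 79328000 on the plus strand of chromosome 10 for Ptbp1, 119421000 to 119488000 on the minus strand of chromosome 3 for Ptbp2, and 59470000 to 59565000 on the minus strand of chromosome 4 for Ptbp3. They held 900 of 3098854 tags and 35 of the 85030 clusters of height 5 or more. A cluster is a run of overlapping tags on a strand, all libraries pooled, and its height is the largest number of tags over a single base.

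The tissue was cortex of CD1 mice, labelled WT, at embryonic day 18.5, and the RNA was that crosslinked to Ptbp2 by ultraviolet light and recovered with it (HITS-CLIP). The 8 libraries came from 2 brains, 4 from each, and held 228424 to 545387 tags. All libraries shared genotype, stage and target protein, and neither input RNA nor a precipitate from another genotype or antibody was analysed here. The number of tags on a transcript therefore combines how much of it was present with how often Ptbp2 touched it, and these cannot be told apart. Fewer cells that express a gene and less RNA per cell cannot be told apart either. In each brain, libraries 1 and 2 bear the letter a in their titles and libraries 3 and 4 the letter b, with no meaning stated. The libraries lettered a were the most alike of each brain (chi-square over windows, divided by its degrees of freedom, 1.11 in both, other pairs 1.18 to 1.35), so the 4 libraries of a brain may not be equally independent. Since the libraries of a brain share 1 animal, p-values below measure only the spread between libraries, which may be technical.

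These proteins bind pyrimidine-rich RNA and mostly repress the use of nearby exons. Ptbp1 is the form of progenitors and of most cell types outside the nervous system, Ptbp2 is enriched in developing neurons, and Ptbp3 is known mainly from blood-forming cells. The family regulates itself: Ptbp1 causes an exon of Ptbp2 transcripts to be skipped, which leads to their decay by nonsense-mediated decay, and Ptbp1 acts on its own transcripts in a similar way. Which clusters lie beside those exons, and the sequences under them, were not analysed here, because no genome or annotation of mm9 was used. For the same reason the tissue label was not checked against marker genes.

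Ptbp2 tags were most frequent on the transcript of Ptbp2 itself. The Ptbp2 span, 67 kb long, held 763 tags, the Ptbp3 span, 95 kb long, held 109, and the Ptbp1 span, 11 kb long, held 28. Per kb of span this was 11.4 tags for Ptbp2 (95% Poisson interval 10.6 to 12.2), 2.55 for Ptbp1 (1.69 to 3.68) and 1.15 for Ptbp3 (0.942 to 1.38), all libraries pooled. These intervals cover counting error only.

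Scaled to library depth as CPM (tags per 1000000 tags of the library), Ptbp2 drew 301, 321, 259 and 211 CPM in libraries 1 to 4 of brain 1 and 266, 131, 185 and 250 CPM in those of brain 2. The lowest value was that of library 2 of brain 2, and the ranges of the brains overlapped. Ptbp3 drew 25.7, 45.8, 41.3 and 40.5 CPM in brain 1 and 33.7, 24.3, 23.5 and 48.2 CPM in brain 2. Here too the brains overlapped, and each library lay far below its own Ptbp2 value. Ptbp1 drew 9.17, 13.1, 8.70 and 0 CPM in brain 1 and 3.74, 15.2, 14.7 and 8.76 CPM in brain 2. Library 4 of brain 1 held no Ptbp1 tag, and no library held more than 6.

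**Figure D1:**
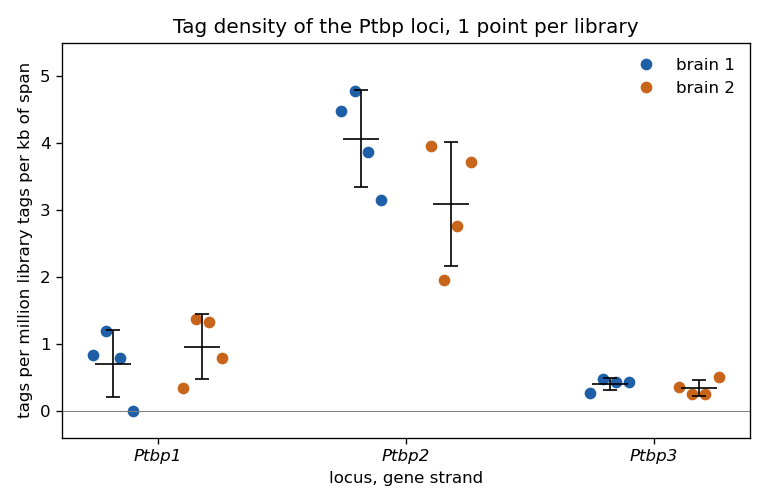
Tag density of each locus on the gene strand, in CPM per kb of span. Each point is a library, bars are the mean and SD over the 4 libraries of a brain; all Ptbp2 points lie above all Ptbp1 and Ptbp3 points.

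Within each library the loci could be compared without any scaling for depth. The density of Ptbp2 tags per kb was higher on Ptbp2 than on Ptbp1 in 8 of 8 libraries, with a mean log2 ratio of 2.19 ± 1.40 (SD, n = 8, two-sided exact sign-flip permutation p = 0.00781), which is 4.57-fold. It was higher on Ptbp2 than on Ptbp3 in 8 of 8 libraries as well, by 3.22 ± 0.40 (SD, n = 8, exact permutation p = 0.00781) or 9.33-fold. That p is the smallest that 8 libraries allow. Ptbp1 lay above Ptbp3 in 7 of 8 libraries, by 1.03 ± 1.48 (SD, n = 8), a difference that did not pass (exact permutation p = 0.0938). These are unadjusted values for 3 pairs on the scale log2(tags + 0.5 per kb), and the exception was the library with no Ptbp1 tag. Without that library the mean was 1.49 (exact permutation p = 0.0156). The 7 libraries left all share a direction, so leaving it out fixed that p at the smallest possible. No conclusion is drawn from it.

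With tags in clusters of height 5 or more left out, the log2 ratio of Ptbp2 to Ptbp1 was 1.07 and did not pass (exact permutation p = 0.0547). That step removed 408 tags from Ptbp2, 23 from Ptbp3 and 0 from Ptbp1, and clusters are themselves places of high density, so the ratio to Ptbp1 had to fall. Ptbp2 still lay above Ptbp3, by 2.44 (exact permutation p = 0.00781). Ptbp1 lay above Ptbp3 by 1.37 (exact permutation p = 0.0391), a ratio that had to rise for the same reason.

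Tags lay on the coding strand of Ptbp2 almost without exception. The opposite strand of its span held 2 tags, so 99.7% were on the gene strand (exact Clopper-Pearson 95% interval 99.1 to 99.97%, counting error only). In 34665 windows of 10 kb with 20 or more tags on a strand, the median share of the fuller strand was 97.4%. For Ptbp1 the share was 90.3% (3 opposite tags, interval 74.2 to 97.96%). For Ptbp3 it was 80.1% (27 opposite tags, interval 72.4 to 86.5%), and these were not spread evenly, since 6 lay 35 to 40 kb and 11 lay 40 to 45 kb from the upstream edge of the span. RefSeq's gene table, which describes another assembly (GRCm38.p6) and gives no strand, names no gene that overlaps Ptbp3 or Ptbp2, and names Plppr3, E130317F20Rik and Mir6910 as overlapping Ptbp1.

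At each locus the 20 kb flanks held fewer gene-strand tags per kb than the span as a whole, which does not place its borders. In the 20 kb before the Ptbp2 span, on the side where transcription starts, the gene strand held 6 tags. In the 20 kb after it there were 53 (2.65 per kb), fewer than within the span but more than before it; whether they belong to the Ptbp2 transcript was not tested. Ptbp1 had 2 and 6 tags in these flanks and Ptbp3 had 7 and 4. The Ptbp3 span was itself sparse toward its downstream edge, with 0, 0, 1 and 2 tags in the pieces of 5 kb from 70 to 90 kb.

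**Figure D2:**
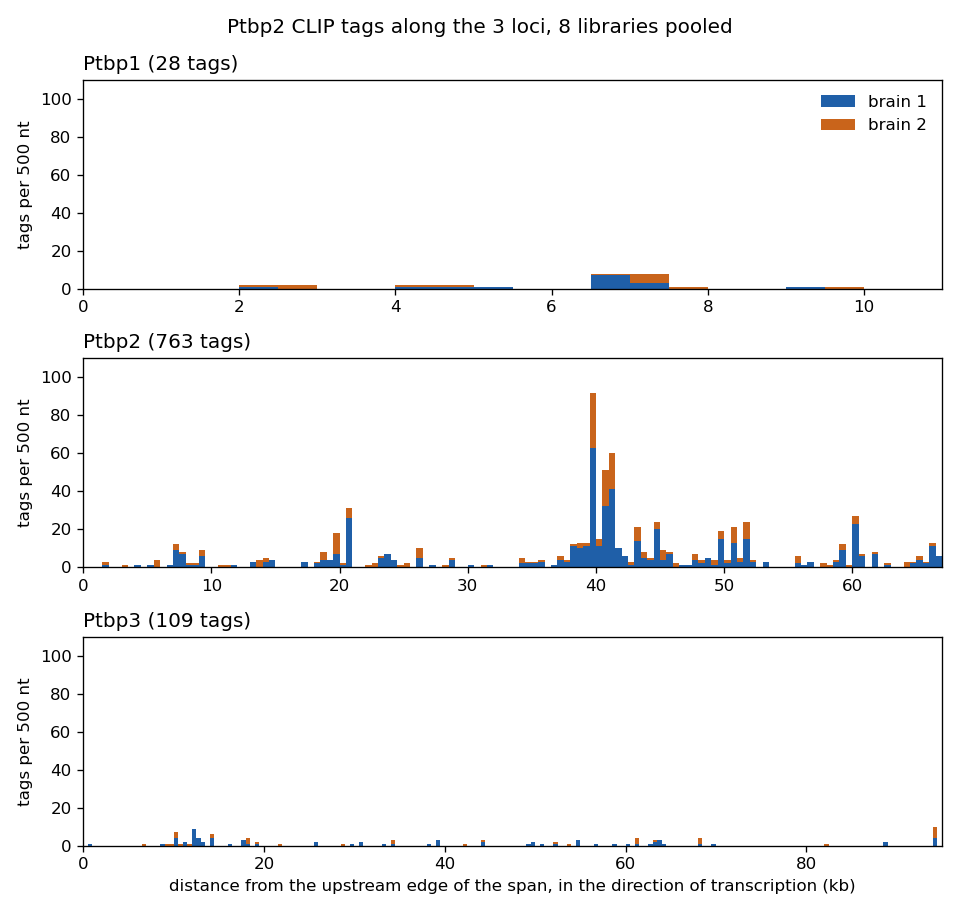
Tags per 500 nt on the gene strand along each span, from its upstream edge (kb), brain 1 and brain 2 stacked, 8 libraries pooled, with the same vertical scale in the 3 panels. Tags of Ptbp2 peak near 40 kb, while no bin of Ptbp1 or Ptbp3 holds more than 10 tags.

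The clusters, like the tags, lay mostly on Ptbp2. Ptbp2 held 32 clusters of height 5 or more, Ptbp3 held 3 and Ptbp1 held none. Just outside that height, Ptbp2 had 9 clusters of height 4 beside 5 of height 5, and Ptbp1 had 2 of height 4. Of strand-specific tiles of 67 kb with any tag, 131 of 77295 (0.169%) held 32 or more such clusters, and 99.9% held fewer tags than Ptbp2. Ptbp3 did not stand out in this way: 15.2% of 95 kb tiles held 3 or more clusters, and 89.1% held fewer tags. Of 11 kb tiles, 93.9% held fewer tags than Ptbp1. Tiles span transcribed and silent sequence alike.

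Most runs of overlapping tags were small at each locus. Ptbp2 had 240 runs of any height, 120 of them a single tag, and 71 of height 3 or more. Ptbp3 had 68, with 48 single tags and 6 of height 3 or more, and Ptbp1 had 15, with 7 and 3. The 763 Ptbp2 tags had 503 different positions, the 109 Ptbp3 tags had 89 and the 28 Ptbp1 tags had 21. The Ptbp2 clusters of height 5 or more had a median width of 45 nt, against 38 nt for all such clusters.

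The Ptbp2 clusters held 408 of the 763 Ptbp2 tags, 53.5%, against 28.7% of all tags in the list. Height is an absolute count, so this share rises with tag density, and no background of like density was made. With each position counted once in a library the share was 43.4%. By library the share ran from 51.0 to 54.5% in brain 1 and from 50.7 to 59.6% in brain 2, with means of 52.9 ± 1.55% and 55.4 ± 3.66% (SD of 4 libraries each, n = 4, exact permutation p = 0.257). The libraries of both brains thus overlapped. For Ptbp3 the share was 21.1%, and for Ptbp1 it was 0 of 28 tags. Tags of a cluster are not independent of each other, so no binomial interval is given for these shares.

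Along Ptbp2 the clusters lay close together. Another cluster of height 5 or more lay within 1000 nt on the same strand for 27 of 32 Ptbp2 clusters, where 32.9% of all clusters had one. That share rises with the number of clusters in a locus, and no background of like cluster density was made. Linking clusters at that distance gave 10 groups. The fullest, from 119446392 to 119449070, began 38930 nt from the upstream edge and held 10 clusters in 2679 nt. Among 67235 such groups in the genome, 92 (0.137%) held 10 or more clusters, and 84.8% were a single cluster. The 10 kb window that contains it, 119440001 to 119450000, held 361 tags and 18 clusters; of 34816 windows with 20 or more tags, 74 held as many tags and 31 (0.0890%) as many clusters, that window included. These are ranks within the list, with no test.

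**Figure D3:**
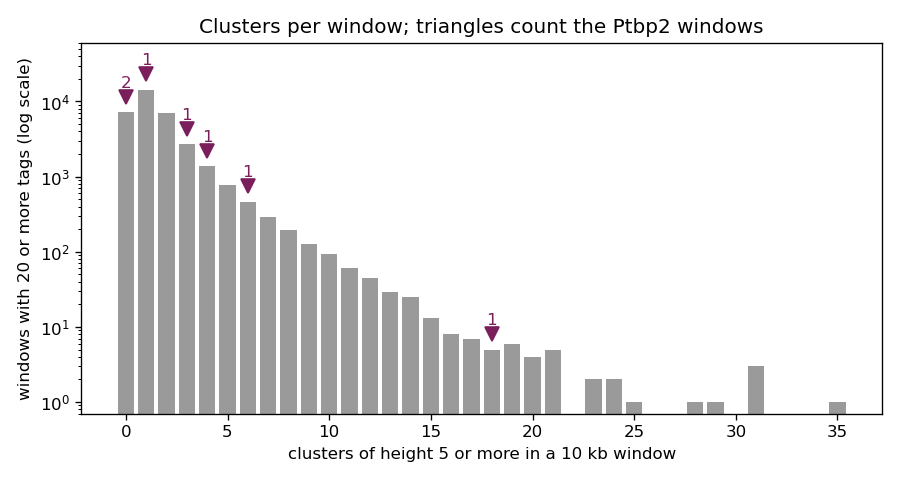
Number of 10 kb strand-specific windows (log scale) by the clusters of height 5 or more that they hold, for the 34816 windows with 20 or more tags. Triangles with a count mark the windows that touch the Ptbp2 span; 1 window holds 18 clusters and 2 hold none.

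The stretch with the most linked clusters drew 246 tags, 32.2% of the locus in 4.00% of its span, at 91.8 tags per kb against 8.04 per kb in the rest of the span. Of the other groups, 5 had more tags per kb, but each was 1 cluster or a pair of them, at most 198 nt long. All 8 libraries contributed, with 26.3 to 36.6% of their Ptbp2 tags. The mean share of brain 1 was 32.7 ± 3.30%, that of brain 2 was 32.0 ± 4.67% (SD, n = 4, exact permutation p = 0.83), a difference smaller than the spread between libraries. Its 10 clusters covered 24.9% of its bases, with a median gap of 100 nt and gaps from 34 to 919 nt.

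The tallest Ptbp2 cluster lay in this stretch, from 119447110 to 119447166, with a height of 38 and 39 tags. Its libraries held 6, 9, 7 and 3 tags in brain 1 and 3, 3, 3 and 5 in brain 2. All 8 libraries touched it. Its full height was reached over the bases 119447139 to 119447149, and 38.5% of its tags shared a position. At 13.1 ± 5.68 CPM for brain 1 against 12.8 ± 6.18 CPM for brain 2 (SD, n = 4, two-sided exact permutation p = 1) the difference between the brains was smaller than their SDs. Of all clusters of height 5 or more, 1.95% were as tall.

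The second tallest, from 119448399 to 119448550, was the fullest and the widest, with 63 tags, a height of 28 and a width of 152 nt. Its tags had 25 different positions (pairs of start and end), and the most frequent position held 22.2% of them. Brain 1 held 12, 13, 9 and 10 tags and brain 2, whose libraries were shallower, held 10, 3, 5 and 1. Scaled to depth, the highest library was one of brain 2 (37.4 CPM, against at most 28.4 in brain 1), and so was the lowest (4.38 CPM). The means of 22.8 ± 3.84 and 16.4 ± 14.6 CPM did not differ by the test (SD, n = 4, exact permutation p = 0.457). Next to it, 34 nt away, the cluster from 119448335 to 119448364 had a height of 21 within 30 nt. It was a narrow stack, in which 76.2% of 21 tags shared a position, and as a whole it held 4, 5, 1 and 2 tags in brain 1 and 4, 1, 2 and 2 in brain 2. At 6.17 ± 3.81 and 8.16 ± 5.10 CPM the brains overlapped (SD, n = 4, exact permutation p = 0.571). A further cluster of this stretch, from 119446891 to 119446954, had a height of 15 and 23 tags from all 8 libraries, 1, 2, 2 and 7 in brain 1 and 1, 1, 4 and 5 in brain 2. Of its tags 39.1% shared a position, and at 6.36 ± 5.82 and 10.1 ± 8.79 CPM the brains overlapped (SD, n = 4, exact permutation p = 0.6).

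**Figure D4:**
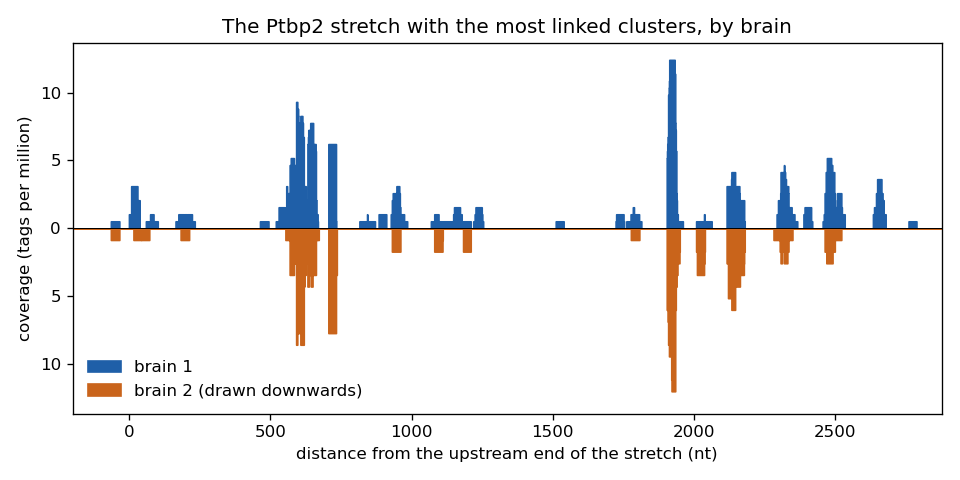
Coverage per base of the Ptbp2 stretch with the most linked clusters, in CPM, against distance (nt) from its upstream end, pooled over the 4 libraries of each brain; brain 2 is drawn downwards. The tallest cluster lies right of the centre, with nearly equal coverage in both brains.

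Upstream of this stretch the clusters were few but some were tall. The third tallest, from 119467329 to 119467373, had a height of 22. Brain 1 held 8, 5, 3 and 3 of its tags and brain 2 held 2, 1, 0 and 0, so its counts did not overlap. Scaled to depth, 1 library of brain 2 reached into the range of brain 1, and the difference between 9.62 ± 3.97 and 2.63 ± 3.54 CPM did not pass (SD, n = 4, exact permutation p = 0.0857). Close by lay a cluster of height 15, from 119468238 to 119468290, with 0, 2, 1 and 1 tags in brain 1 and 1, 2, 2 and 6 in brain 2, and a cluster of height 6, from 119467210 to 119467249. The first cluster in the direction of transcription, from 119480484 to 119480514, lay 7486 nt from the upstream edge with a height of 15 and 5, 1, 5 and 2 tags in brain 1 against 0, 1, 1 and 0 in brain 2. A cluster of height 7 lay from 119461863 to 119461911. The 10 kb windows beginning at 119450001 and 119470001 held 35 tags each and no cluster.

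Downstream of it came a series of lower clusters. From 119442455 to 119445015 there were 7, the tallest with a height of 12 from 119443167 to 119443212, and from 119436307 to 119438073 there were 5, with heights of 5 to 8. These stretches drew 9.70% and 7.08% of the locus tags, each from all 8 libraries. Between these stretches lay a single cluster at 119440194 (height 5). After both, single clusters or a pair followed at 119432155 (height 6), 119427561 and 119427718 (heights 6 and 8) and, nearest the downstream edge, 119421720 (height 5). In 3 of the 32 clusters all tags shared a position, and in 9 more than 50% did, shares of 9.38% and 28.1% against 3.77% and 36.8% of all clusters of height 5 or more.

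**Figure D5:**
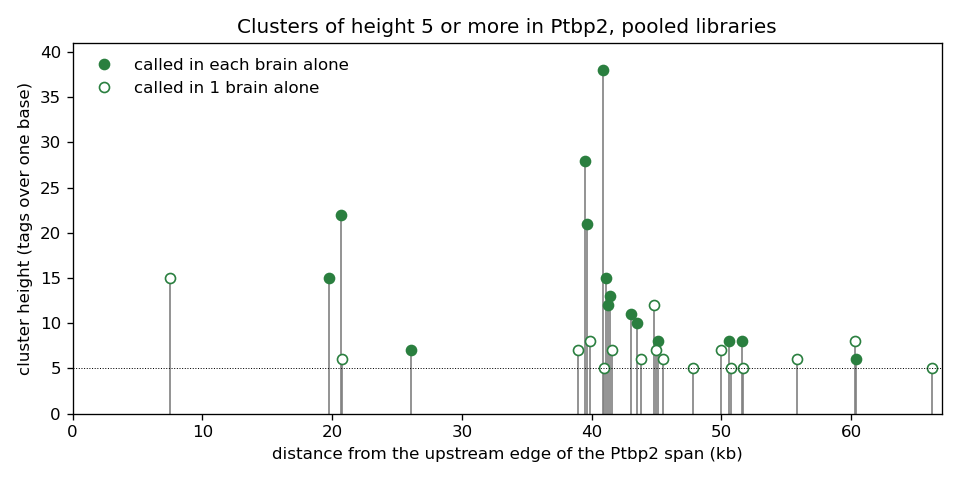
Height of each of the 32 Ptbp2 clusters (tags over a single base, 8 libraries pooled) against its distance from the upstream edge of the span (kb). Filled points were called at a height of 3 or more in each brain alone, open points in 1 brain; the dotted line marks a height of 5.

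In the overlap between brains the Ptbp2 clusters lay near all clusters of the list. Tags of both brains were present in 29 of 32 (90.6%, all clusters 91.5%). With the brains clustered separately at a height of 3 or more, 15 of 32 (46.9%) were called in both, near the 42.5% of all clusters of height 5 or more. By height this was 10 of 12 at a height of 10 or more (83.3%, all clusters 89.1%) and 5 of 20 below it (25.0%, all clusters 25.4%). All 12 of the former were called in brain 1 and 10 in brain 2, the shallower brain. Along the span, counts of the brains in 134 bins of 500 nt had a Pearson r of 0.87 and a Spearman rho of 0.56, as a description over bins that share libraries and depth. For Ptbp3 these were 0.35 and 0.31 over 190 bins, and for Ptbp1 0.42 and 0.52 over 22 bins.

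Ptbp3 had 3 clusters, none of which had another within 1000 nt. The tallest, from 59470684 to 59470714, had a height of 10 and lay 94286 nt from the upstream edge, at the far end of the span. Brain 1 held 1, 1, 0 and 2 of its tags and brain 2 held 2, 1, 1 and 2. Among these 10 tags were 4 different positions. At 2.07 ± 1.75 and 5.55 ± 3.01 CPM the brains did not differ by the test (SD, n = 4, exact permutation p = 0.143), and they overlapped. Counting each position once in a library, the difference reached the smallest p the design allows (4.66 CPM higher in brain 2, exact permutation p = 0.0286). These were all 10 tags of the last 5 kb of the span, and the pieces of 5 kb before it held 2, 1 and 0; whether the cluster belongs to the Ptbp3 transcript was not tested. The other clusters, from 59552636 to 59552692 (height 7) and from 59554515 to 59554559 (height 6), lay 12308 and 10441 nt from the upstream edge, where the 5 kb from 10 to 15 kb held 32 of the 109 tags. The former held tags of brain 1 only, 2, 3, 1 and 1, which gives the smallest p of the design (3.63 ± 2.07 CPM against 0, SD, n = 4, unadjusted exact permutation p = 0.0286) but rests on 7 tags. Of the 35 clusters compared in this way, the Ptbp2 clusters from 119442455 to 119442500 (3.08 ± 1.11 CPM against 0) and from 119443167 to 119443212 (5.79 ± 3.40 against 0.759 ± 1.52 CPM) reached the same unadjusted p, with 6 and 12 tags. The Ptbp3 cluster from 59554515 to 59554559 held 0, 1, 1 and 2 tags in brain 1 and 1, 0, 1 and 0 in brain 2, which overlap. Of the 3 Ptbp3 clusters, only 1 was called at a height of 3 or more in each brain alone. The rest of the span was sparse, with at most 13 tags in any other piece of 5 kb.

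Ptbp1 tags formed no cluster of height 5. Its tallest, from 79324300 to 79324345 and from 79324473 to 79324502, held 4 tags each, and the next, from 79323948 to 79323977, held 3. All 3 lay in the stretch 6 to 8 kb from the upstream edge, whose pieces of 1 kb held 8 and 9 of the 28 tags. At this depth a cluster of the height seen in Ptbp2 was not detected on Ptbp1, and a level of the Ptbp1 transcript was not measured.

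The brains were compared for each locus in a single fit (limma voom) with all 10 kb windows outside the loci. Ptbp2 and Ptbp3 passed the filter on low counts; Ptbp1 did not. Neither was called, where 43 of 3754 loci and windows (1.15%) were, 1 of them lower in brain 2 (0.0266%). The number called in either direction was 16 of 2373 without library 1 of brain 1 and 28 of 2362 without its library 2. Ptbp2 was lower in brain 2 by a log2 change of -0.27 ± 0.15 (SE, 95% interval -0.58 to 0.03, limma adjusted p = 0.563), and Ptbp3 by -0.13 ± 0.31 (interval -0.76 to 0.50, adjusted p = 0.932). The median over all features was -0.01. With total tags as the scaling, which moved that median to -0.21, Ptbp2 changed by -0.45 (95% interval -0.81 to -0.10, adjusted p = 0.338) and Ptbp3 by -0.37 (adjusted p = 0.646). Without the filter, Ptbp1 had a log2 change of 0.91 ± 0.63 (adjusted p = 0.776) and Ptbp2 of -0.45 (95% interval -0.71 to -0.19, adjusted p = 0.418). The Ptbp2 interval, unadjusted, also left out 0 without library 4 of brain 1, library 1 of brain 2 or library 4 of brain 2. It crossed 0 with any other library left out. It also did so with the library number as a block, limma-trend and repeated positions counted once per library. Brain 2 supplied 30.7% of the Ptbp2 tags, 33.0% of the Ptbp3 tags and 46.4% of the Ptbp1 tags, against 37.6% of all tags.

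Among the 10 groups of linked Ptbp2 clusters, the share of the locus tags that fell in a group was compared between brains. Only the pair from 119427561 to 119427758 reached the smallest p that 4 against 4 libraries allow, with 3.14 ± 0.78% in brain 1 against 1.77 ± 0.40% (SD, n = 4, exact permutation p = 0.0286). As 1 of 10 unadjusted comparisons, which rests on 17 and 4 tags, it is reported as a value and not as a difference.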

How the data were processed

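The authors deposited a list of mapped tags in BED format for 8 libraries, with a score field that is always 0 and so carries no measurement; tags, 27 to 30 nt long, were counted here. The submitters' processing notes name Bowtie, with no version, and 2 builds, mm8 and mm9. Chromosome 1 holds tags up to position 197194446, past its end in mm8, so positions are mm9, counted from 1. Reads opened with 4 degenerate bases, per the labels' protocols; the handling of reads that repeat or map to several places is not given in the sources used. All tag names matched a library. No 2 libraries of a brain agreed within sampling noise (chi-square over windows, divided by its degrees of freedom, 1.11 to 1.35).

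Clusters joined tags that overlapped by 1 nt or more. limma 3.58.1 (voom, R 4.3.3) was fitted to the loci and 10 kb windows with 20 or more tags, keeping features with 15 tags in all and, in 4 libraries, a CPM equal to 10 tags at the median depth. Scaling used a trimmed mean of log ratios, and adjustment was by Benjamini and Hochberg, with calls at 0.05. Tested on simulated data for this comparison (3754 features), it recovered 62.0% of 2-fold and 100% of 4-fold increases, and 10.0% and 68.0% of falls to 0.5 and 0.25 (50 features each). The exact tests were checked on made-up values. Described one by one are the 5 tallest Ptbp2 clusters and all of Ptbp3. The genes, spans and lists were chosen with earlier results of these data known. Alternatives were another scaling, no filter, the library number as a block, limma-trend, each library left out, repeated positions counted once, other heights, overlaps and spans.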

Additional observations from a re-analysis of the deposited data

Results flagged for a closer look

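In 4 of the 32 sets of 4 libraries examined, 1 library stood apart from the rest. Each was the share of tags on the gene strand. Each rested on 1 or 2 opposite tags, while the other 3 libraries of the set were at 100%. With the others tied, any opposite tag sets a library apart, so a chance rate of about 1 set in 20 does not hold here. For Ptbp1 the shares were 0% in library 4 of brain 1 (0 gene-strand tags and 1 opposite tag) and 50% in library 4 of brain 2 (2 and 2). For Ptbp2 they were 99.2% in library 3 of brain 1 and 98.4% in library 3 of brain 2, with 1 opposite tag each.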

How the results depend on the processing

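Under the alternatives run, 155 values were called the same, 18 moved, 7 changed sign, 3 became called and 1 lost its call. A tested value was the same where it kept its direction and its side of the threshold, a count where it stayed within 1.5 times and a share where it stayed within the exact binomial 95% interval of the reported value, which covers counting error only. Height set the cluster counts: at a height of 3 or more Ptbp1 held 3, Ptbp2 71 and Ptbp3 6 clusters, and at 10 or more Ptbp2 held 12 and Ptbp3 1. With repeated positions counted once over all libraries Ptbp2 held 16, and counted once per library 25, which then took 43.4% of its tags. Clusters called in both brains were 23 in Ptbp2 and 2 in Ptbp3 at a height of 2 or more in each brain, and 5 and 0 at a height of 5 or more. Without tags in clusters, the log2 density ratios were 1.07 for Ptbp2 to Ptbp1 (no longer called), 1.37 for Ptbp1 to Ptbp3 (called) and 2.44 for Ptbp2 to Ptbp3 (still called). The brain difference of the tallest Ptbp3 cluster was 4.66 CPM, and called, with repeated positions once per library. That of the tallest Ptbp2 cluster, called in no setting, changed sign to 1.09 CPM under trimmed-mean scaling. Features called between brains were 8 of 3754 with total scaling, 10 of 34810 with no filter, 14 of 2343 with repeated positions once per library and 28 of 3754 with limma-trend. Changes with cluster height had a direction fixed by definition. So had the ratios that involve Ptbp1 with cluster tags left out, as Ptbp1 has no such tags. The cause of the other changes was not tested.

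With each library left out in turn, Ptbp2 held 23 to 31 clusters, Ptbp3 2 to 3 and Ptbp1 0. The gene-strand share was 88 to 96.3% for Ptbp1, 99.7 to 99.9% for Ptbp2 and 78.5 to 81.8% for Ptbp3. Clusters held 48.1 to 52.8% of Ptbp2 tags and 15.6 to 23.3% of Ptbp3 tags. Log2 density ratios were 1.79 to 2.45 for Ptbp2 to Ptbp1, 3.11 to 3.28 for Ptbp2 to Ptbp3 and 0.82 to 1.49 for Ptbp1 to Ptbp3. The log2 change between brains was -0.43 to -0.13 for Ptbp2 and -0.43 to 0.10 for Ptbp3, positive only without library 3 of brain 2. The tallest Ptbp2 cluster differed by -3.35 to 1.88 CPM (0.41, 0.20, 0.91 and 1.01 in the other settings above 0) and that of Ptbp3 by 2.42 to 4.36. Features called were 16 (of 2373 tested, without library 1 of brain 1) to 44 (of 2424 tested, without library 4 of brain 1). Same-numbered libraries did not deviate together (correlations -0.033 to -0.006, against -0.017 to 0.033 for differently numbered ones). Correlations this weak in every pair gave no sign of a pairing by number but cannot exclude one. With the number as a replicate block Ptbp2 changed by -0.23 and Ptbp3 by -0.18, neither called, and 40 of 3754 features were called. Depth limits what can be said of Ptbp1, which has 28 tags over all libraries.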
